A study of Mus musculus with 6 samples.

Results

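The genes described here are the cytosolic translation initiation factors of B16F10 cells, a pigmented mouse melanoma line. They were taken as the gene symbols of the array annotation that begin with Eif and a digit from 1 to 6, after leaving out the 4 Eif2ak genes, which encode kinases. This gave 44 genes among the 19505 genes measured, each represented by a single transcript cluster, the array's probe set for a gene. Cells had stayed for 48 h in medium without added compound (control, dose 0), or in medium with a compound named SQ-diEG in the series title and di-sq in the sample labels, at 2.5 µM or 40 µM. RNA of each of the 3 groups was hybridised to 2 Affymetrix arrays. All 6 samples came from this 1 line, kept in RPMI1640. Separate cultures are not stated for the 2 arrays of a group, and the p-values therefore rest on a spread that may be technical. Titles, sources and treatment labels agreed on the groups, but the free-text description of replicate 1 at 2.5 µM names medium and those of the other 3 treated arrays name an agent APC, a difference that could not be settled here. Values are deposited log2 expression values.

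Initiation is the step of protein synthesis at which a ribosome is assembled on the start codon of an mRNA. The factor eIF2, bound to GTP, carries the initiator tRNA to the small ribosomal subunit, and eIF2B reloads eIF2 with GTP after each round. The large complex eIF3 and the small factors eIF1 and eIF1A prepare the small subunit for scanning, while eIF4F (the cap-binding protein eIF4E, the scaffold eIF4G and the helicase eIF4A) brings it to the capped end of the mRNA. Cells slow initiation by phosphorylating eIF2, which blocks eIF2B, and by letting 4E-BP proteins occupy eIF4E when the kinase complex mTORC1 is inactive. Both controls act on proteins, whereas the arrays measured mRNA.

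Of the 44 genes, 31 had a mean over the 6 arrays above 9.94, the mean over the arrays of the 95th percentile of their negative control features, which 21.3% of all genes exceeded. On every array 29 of the 44 lay above that array's own percentile and 10 lay below it. For these 10 (Eif2s3y, Eif2b1, Eif2b3, Eif2b4, Eif2b5, Eif3i, Eif4ebp2, Eif5a2, Eif4a3l1 and Eif4e1b) the values compared are not clearly above background. The pigment cell markers of the line's label (Tyr, Tyrp1, Dct, Pmel, Mlana, Mitf and Sox10) had means from 12.76 to 19.01, and the measured markers of fibroblasts, keratinocytes, leukocytes and endothelium had means of at most 6.25. In each treated group replicate 1 was lower than the other 4 arrays in its hybridisation and poly-A controls. The mean of the hybridisation controls was 10.43 on replicate 1 at 2.5 µM and 10.30 on that at 40 µM, against 10.82 to 11.15 on the other arrays, and that of their poly-A controls 5.65 and 5.63, against 6.35 to 7.42. The interquartile range over all genes was 5.20 and 5.43 on these arrays and 4.90 to 4.94 on the others. They are called the low arrays here. Replicate 2 at 40 µM stood apart in the other direction, with the highest hybridisation mean (11.15) and the highest poly-A mean (7.42). The control arrays had 10.86 and 10.90 for the former and 6.35 and 6.39 for the latter. Replicate 2 is the only 40 µM array where the low arrays are left out.

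**Figure D1:**
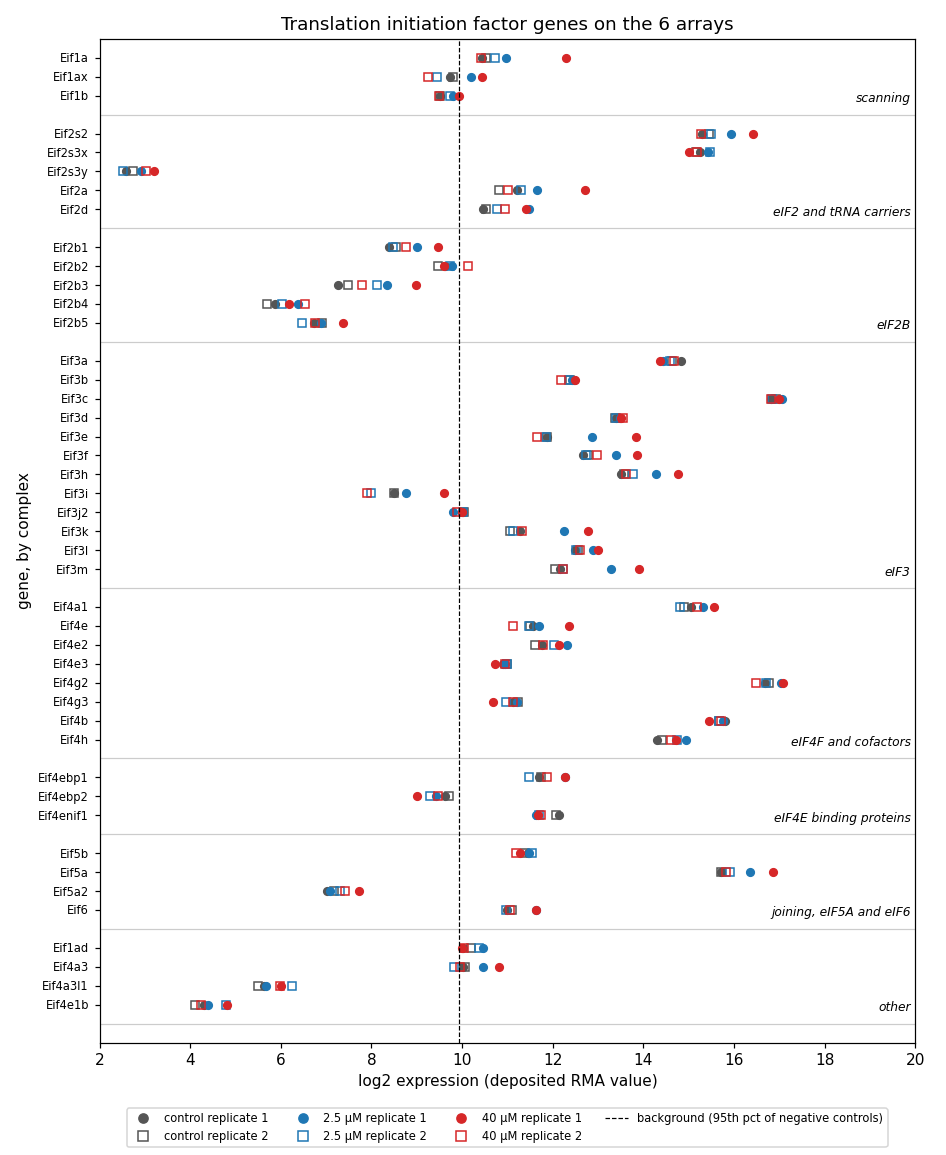
Log2 expression of the 44 initiation factor genes (vertical axis, grouped by complex) on each of the 6 arrays. Circles are replicate 1 and squares replicate 2, grey is control, blue 2.5 µM and red 40 µM, and the dashed line is the background at 9.94. For Eif3e, Eif3h, Eif3k and Eif3m, the circles of both doses lie to the right of the other symbols.

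The comparison of 40 µM with control asked how the higher dose changed initiation factor mRNAs after 48 h. The control arrays lay close together for these genes, while replicate 1 at 40 µM was higher for most. Replicate 2 at 40 µM lay near the controls in its median, but single genes differed from them in both directions. Eif2d, for example, was 0.45 above the control mean on that array and Eif4e was at -0.41 from it. The median difference from the control mean over the 44 genes was 0.54 on replicate 1 and -0.0078 on replicate 2, on the log2 scale. It was -0.043 and -0.01 over all genes. Replicate 1 had 34 of the 44 genes above the control mean, where 46.5% of all genes were, and replicate 2 had 22, where 48.8% of all genes were. Taking both arrays, 33 of the 44 were higher, where 48.7% of all genes were, and 11 lower, with a median log2 change of 0.31. As the samples are bulk RNA, fewer cells with an mRNA and less of it per cell cannot be told apart.

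None of the 44 genes passed at 40 µM (limma, Benjamini-Hochberg adjustment over all 19505 genes, threshold 0.05), and 0.00% of all genes did. At an unadjusted p under 0.05 there were 2, Eif2b3 and Eif2d, both higher, and 12.0% of all genes, of which 5.18% higher and 6.86% lower. Both 40 µM arrays lay above both controls for 18 of the 44, where 22.2% of all genes did, and below both for 4, where 26.3% did. Among genes above background these counts were 12 and 3 of 31 initiation factors, with 26.2% and 23.0% over all such genes. The outcome rested on which arrays were kept. Without 40 µM replicate 2, 10 of the 44 passed, all higher (Eif1a, Eif2a, Eif2b3, Eif2s2, Eif3e, Eif3f, Eif3h, Eif3m, Eif4e and Eif5a), where 11.5% of all genes passed, 7.46% higher and 3.99% lower. Without both low arrays, 9 passed, 4 higher (Eif2b2, Eif2b4, Eif2d and Eif4h) and 5 lower (Eif1ax, Eif3i, Eif4e, Eif4enif1 and Eif4g2), where 19.2% of all genes passed (9.15% higher, 10.1% lower), and the median log2 change was -0.0078. In that fit the spread came from the 2 controls alone, and in both fits the lone array of a group is assumed to vary like the others.

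At the lower dose of 2.5 µM, replicate 1 again lay above control for most of the genes. The median difference from the control mean was 0.33 on replicate 1 and 0.0026 on replicate 2, and over all genes it was 0.00011 and 0.0076. Replicate 1 had 37 of the 44 above the control mean, where 50.0% of all genes were, and replicate 2 had 22, where 50.7% were. With both arrays, 35 of the 44 were higher, where 51.2% of all genes were, and 9 lower, with a median log2 change of 0.19. No initiation factor gene passed (limma, 0.00% of all genes), and 2 had an unadjusted p under 0.05, Eif4h, higher, and Eif4enif1, lower, as did 9.62% of all genes, 4.24% higher and 5.38% lower. Both arrays lay above both controls for 18 of the 44, where 27.1% of all genes did, and below both for 4, where 25.9% did. Among genes above background these were 12 and 3 of 31, with 34.0% and 23.7% over all such genes. Without both low arrays 9 of the 44 passed, 6 higher (Eif2b3, Eif2s3x, Eif4a3l1, Eif4e2, Eif4h and Eif5a) and 3 lower (Eif3i, Eif4ebp2 and Eif4enif1), where 20.5% of all genes passed, 10.6% higher and 9.88% lower. The 2.5 µM and 40 µM comparisons share their control arrays.

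**Figure D2:**
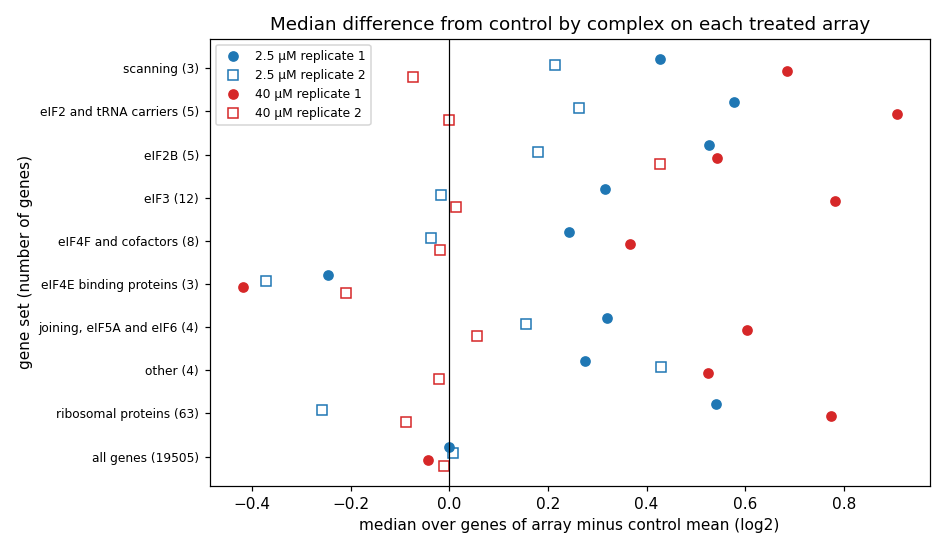
Median over the genes of each complex (vertical axis, number of genes in brackets) of the difference between a treated array and the control mean, on the log2 scale (horizontal axis). Circles are replicate 1, squares replicate 2, blue 2.5 µM and red 40 µM. For eIF3 the circles lie at 0.31 and 0.78 and the squares at -0.017 and 0.014, and the eIF4E binding proteins lie below 0 on all 4 arrays.

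Among the scanning factors, Eif1a and Eif1ax encode eIF1A, which binds the decoding site of the small subunit and keeps it open for scanning. Eif1a was at 10.43 and 10.53 in control, 10.97 and 10.72 at 2.5 µM and 12.30 and 10.41 at 40 µM (replicate 1 before replicate 2, here and below). Only the 40 µM replicate 1 value stood far from the rest, and the 40 µM arrays enclosed the controls. The log2 change at 40 µM was 0.87 (standard error 0.54, limma, adjusted p = 0.522). Eif1ax had a log2 change of 0.086 at 40 µM, with 0.69 on replicate 1 and -0.51 on replicate 2. Eif1b, a paralogue of the start codon selection factor eIF1, ranged over the 6 arrays from 9.50 to 9.93. The means of Eif1ax and Eif1b lay below 9.94. The related genes Eif1a and Eif1ax could share signal through similar probes, which was not tested.

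For eIF2 itself, the genes of the beta subunit (Eif2s2) and of the GTP-binding gamma subunit (Eif2s3x, with a Y-linked copy, Eif2s3y) were measured. Eif2s2 was at 15.29 and 15.44 in control, 15.94 and 15.50 at 2.5 µM and 16.43 and 15.28 at 40 µM. It was above both controls on 3 of the 4 treated arrays, most on 40 µM replicate 1, while 40 µM replicate 2 lay just below them, and its log2 change at 40 µM was 0.49 (standard error 0.36). Eif2s3x was at 15.25 and 15.16 in control, 15.43 and 15.47 at 2.5 µM and 15.01 and 15.19 at 40 µM. Its 2.5 µM arrays were above the other 4, and its log2 change between 40 µM and 2.5 µM of -0.35 had the smallest unadjusted p of the 44 genes in that comparison (0.0618, limma, adjusted p = 0.854). Eif2s3y was at 2.59 and 2.73 in control, 2.92 and 2.51 at 2.5 µM and 3.21 and 3.03 at 40 µM, far below background on every array.

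The other initiator tRNA carriers are eIF2A and eIF2D, proteins outside the eIF2 complex that have been tied to initiation on particular mRNAs. Eif2d was at 10.46 and 10.54 in control, 11.47 and 10.76 at 2.5 µM and 11.41 and 10.95 at 40 µM, above both controls on all 4 treated arrays. Its log2 change was 0.68 at 40 µM (standard error 0.29, 95% interval from 0.0039 to 1.35, limma, adjusted p = 0.412) and 0.62 at 2.5 µM (standard error 0.29, adjusted p = 0.540). Eif2a was at 11.20 and 10.81 in control, 11.65 and 11.30 at 2.5 µM and 12.72 and 11.01 at 40 µM. Here 40 µM replicate 1 stood alone, and replicate 2 lay between the controls, so the groups overlapped. Of this group of 5 genes, 4 were higher and 1 lower at 40 µM.

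The complex eIF2B, the exchange factor that reloads eIF2 with GTP, is built from the products of Eif2b1 to Eif2b5. All 5 genes had means below 9.94, so what follows compares values near or below background, with 4 of the 5 below it on every array and Eif2b2 above it on 1. At 40 µM the log2 change was above 0 in all 5, the median being 0.56, and at 2.5 µM in 4 of 5, the median being 0.27. On both replicates at 40 µM the median difference from control was above 0, 0.54 on replicate 1 and 0.43 on replicate 2. Eif2b3, the gamma subunit, was at 7.26 and 7.48 in control, 8.34 and 8.12 at 2.5 µM and 8.98 and 7.80 at 40 µM, so that all 4 treated arrays exceeded both controls. It had the smallest unadjusted p of the 44 genes at 40 µM (0.0304), a mean of 8.39 ± 0.83 against 7.37 ± 0.15 (SD, n = 2) and a log2 change of 1.02 (standard error 0.38, 95% interval from 0.13 to 1.91, limma, adjusted p = 0.384). Eif2b4, the delta subunit, was at 5.87 and 5.70 in control, 6.38 and 6.02 at 2.5 µM and 6.17 and 6.52 at 40 µM, again with the 4 treated arrays above the controls, and its highest value was on 40 µM replicate 2. Eif2b1, the alpha subunit, was at 8.40 and 8.55 in control, 8.999 and 8.48 at 2.5 µM and 9.46 and 8.76 at 40 µM, with both 40 µM arrays above the controls and a log2 change of 0.64 (standard error 0.30). The beta subunit gene Eif2b2 was at 9.63 and 9.48 in control, 9.77 and 9.73 at 2.5 µM and 9.59 and 10.13 at 40 µM, with a change at 40 µM of 0.31, of which replicate 2 gave the larger part (0.58 against 0.037 on replicate 1). The catalytic epsilon subunit gene, Eif2b5, had 0.24 at 40 µM and -0.14 at 2.5 µM, both smaller than their standard errors.

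The complex eIF3 was represented by 12 genes, of which 11 had means above background. Their values did not shift as a unit. Eif3e, Eif3f, Eif3h, Eif3k and Eif3m were higher on both low arrays, by 1.14 to 1.97 on 40 µM replicate 1 and by 0.67 to 1.17 on 2.5 µM replicate 1. On the replicate 2 arrays the same 5 genes were within -0.21 and 0.26 of control at 40 µM and within -0.04 and 0.23 at 2.5 µM. These 5 were set apart after their values were seen, and Eif3i, below background, came close to them on 40 µM replicate 1, at 1.10 above control. The products of Eif3f and Eif3h are the subunits with an MPN domain, and those of Eif3e, Eif3k and Eif3m belong, with those of Eif3a, Eif3c and Eif3l, to the subunits with a PCI domain, which together form the structural core of mammalian eIF3.

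Eif3e was at 11.88 and 11.87 in control, 12.86 and 11.85 at 2.5 µM and 13.85 and 11.66 at 40 µM. The controls and both replicate 2 arrays lay within a range of 0.22, and 40 µM replicate 1 was 2.18 above replicate 2, the widest gap of the 44 genes. Eif3m was at 12.17 and 12.04 in control, 13.28 and 12.23 at 2.5 µM and 13.90 and 12.22 at 40 µM, with all 4 treated arrays above the controls, those of replicate 2 by 0.12 and 0.11. Its log2 change at 40 µM was 0.95 (standard error 0.55, limma, adjusted p = 0.504). Eif3k was at 11.29 and 11.05 in control, 12.24 and 11.13 at 2.5 µM and 12.78 and 11.32 at 40 µM, where 2.5 µM replicate 2 lay between the controls. Eif3h was at 13.50 and 13.56 in control, 14.29 and 13.76 at 2.5 µM and 14.77 and 13.61 at 40 µM, with the treated arrays above the controls. Its log2 change was 0.66 at 40 µM (standard error 0.37). Eif3f was at 12.68 and 12.77 in control, 13.39 and 12.72 at 2.5 µM and 13.87 and 12.98 at 40 µM. Its replicate 2 value at 40 µM was 0.26 above the control mean, more than that of the other 4.

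The scaffold subunits and their neighbours showed smaller differences. Eif3c, which encodes a scaffold subunit, was at 16.81 and 16.93 in control, 17.06 and 16.84 at 2.5 µM and 16.99 and 16.82 at 40 µM, a range of 0.25 over the 6 arrays, with a log2 change at 40 µM of 0.037 (95% interval from -0.34 to 0.42). Eif3a, the largest scaffold subunit, was lower on the 4 treated arrays on average, with -0.20 at 40 µM and -0.21 at 2.5 µM, and the 40 µM arrays overlapped the controls. Eif3b had -0.093 and Eif3d, a subunit that can itself bind the cap, had 0.14 at 40 µM with standard errors of 0.19 and 0.16. Eif3l had 0.27, with 0.46 on replicate 1. Eif3i, with a mean below background, was at 9.60 on 40 µM replicate 1 and at 7.89 on replicate 2, on either side of its controls at 8.49 and 8.51. Eif3j2, a copy of the gene of the loosely held subunit eIF3j, ranged from 9.81 to 10.04 around the background level, with all 4 treated arrays below the controls, the lowest at -0.22 from the control mean. The highest of the 4, 2.5 µM replicate 2, was nearly level with the controls, at 10.02 against 10.021 and 10.036.

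**Figure D3:**
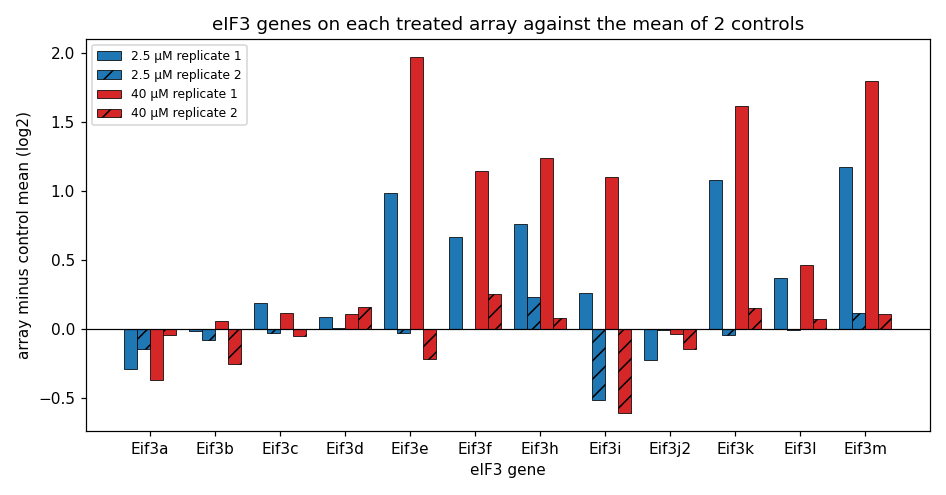
Difference of each treated array from the mean of the 2 controls (vertical axis, log2) for the 12 eIF3 genes (horizontal axis). Bars start at 0, plain bars are replicate 1 and hatched bars replicate 2, blue is 2.5 µM and red 40 µM. The plain bars of Eif3e, Eif3f, Eif3h, Eif3k and Eif3m reach 0.67 to 1.17 at 2.5 µM and 1.14 to 1.97 at 40 µM, and their hatched bars stay between -0.21 and 0.26.

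The upstream sequences of these genes were searched for a pair of short words, to see what the members share outside the array. Members on 1 chromosome were left out of this search, whereas the shares over all genes include that chromosome. Otherwise RefSeq (GRCm38.p6) gave at least 1 window of 250 bases before a transcript start for 33 of the 44 genes. The E-box CACGTG, which reads the same on both strands and is the word bound by MYC with MAX and by the melanocyte factor MITF, was in a window of 8 of the 33 (Eif1b, Eif3f, Eif3k, Eif4a1, Eif4e, Eif4h, Eif5a and Eif5a2), and in a window of 6.86% of 27025 genes with such windows. The word CCGGAAG, a core of ETS family sites, was searched on both strands. It was in a window of 11 of the 33, and of 7.83% of all genes. The 11 were Eif1ad, Eif1ax, Eif1b, Eif3c, Eif3d, Eif3l, Eif3m, Eif4e2, Eif4ebp2, Eif5a and Eif5a2. A gene counted if any of its windows held the word, which limits the comparison of these shares. Eif5a had 6 windows, Eif4e2 3 and Eif4e 2, while the 27025 genes, measured here or not, had 32851 windows together. No match of one word overlapped a match of the other in the 33 genes. Among the 8 genes with an E-box the log2 change at 40 µM was above 0 in all, the median being 0.43 and the range from 0.20 to 0.88, and 16 of the 25 without one were higher, with a median of 0.24. These values rest largely on replicate 1: the 8 had a median difference from control of 0.72 on 40 µM replicate 1 and of 0.18 on replicate 2, where 6 were above 0 and Eif1b and Eif4e were not. Over the 1243 measured genes with an E-box in a window, 50.9% were higher at 40 µM, with a median of 0.011. With CCGGAAG 9 of 11 were higher at 40 µM, with a median of 0.20, and without it 15 of 22, with 0.32. At 2.5 µM the medians stood the other way, 0.18 with the word (10 of 11 higher) and 0.15 without it (16 of 22). Over the 1642 measured genes with CCGGAAG 61.1% were higher at 40 µM, and on 40 µM replicate 2 alone 6 of the 11 were above control. Of the eIF3 genes with CCGGAAG, Eif3m had a log2 change of 0.95 at 40 µM. The others, Eif3c, Eif3d and Eif3l, had 0.037, 0.14 and 0.27. Eif3e and Eif3h, which were high on the low arrays, were not among the genes with either word. Whether they were among the 33 genes with a searched window is not given here. A match describes these letters and is not evidence of binding, and no list or word was tested for enrichment. Windows of 3 eIF3 genes that were high on the low arrays, of Eif4h, which was above control on all 4 treated arrays, and of Eif4e, with the word at 2 places, are shown, with the E-box in capitals, except in Eif3m, where the capitals mark CCGGAAG. They lie at chr7:108934165-108934414, plus strand (Eif3f), chr7:28981889-28982138, minus strand (Eif3k), chr2:105017028-105017277, minus strand (Eif3m), chr5:134639410-134639659, minus strand (Eif4h) and chr3:138527018-138527267, plus strand (Eif4e, 1 of its 2 windows), each written 5′ to 3′ and ending at the base before the start.
Eif3f: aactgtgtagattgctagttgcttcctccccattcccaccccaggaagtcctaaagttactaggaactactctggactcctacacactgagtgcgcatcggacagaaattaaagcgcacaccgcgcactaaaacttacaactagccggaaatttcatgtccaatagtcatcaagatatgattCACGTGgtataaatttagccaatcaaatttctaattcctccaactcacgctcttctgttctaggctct
Eif3k: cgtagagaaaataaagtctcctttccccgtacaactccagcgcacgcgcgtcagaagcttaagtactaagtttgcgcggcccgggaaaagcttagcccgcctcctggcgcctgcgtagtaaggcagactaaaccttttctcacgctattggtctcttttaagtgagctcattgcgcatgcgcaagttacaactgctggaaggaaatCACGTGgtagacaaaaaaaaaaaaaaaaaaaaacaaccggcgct
Eif3m: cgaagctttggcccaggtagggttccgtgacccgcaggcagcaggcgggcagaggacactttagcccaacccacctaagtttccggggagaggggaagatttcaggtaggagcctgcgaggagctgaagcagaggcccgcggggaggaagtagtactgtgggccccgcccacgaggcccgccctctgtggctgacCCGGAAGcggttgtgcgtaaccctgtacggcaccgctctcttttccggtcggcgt
Eif4h: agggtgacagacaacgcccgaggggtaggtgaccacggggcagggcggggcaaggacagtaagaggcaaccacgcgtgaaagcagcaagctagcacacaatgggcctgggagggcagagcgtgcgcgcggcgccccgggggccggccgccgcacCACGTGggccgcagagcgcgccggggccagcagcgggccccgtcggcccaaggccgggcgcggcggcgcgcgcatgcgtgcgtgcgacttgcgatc
Eif4e: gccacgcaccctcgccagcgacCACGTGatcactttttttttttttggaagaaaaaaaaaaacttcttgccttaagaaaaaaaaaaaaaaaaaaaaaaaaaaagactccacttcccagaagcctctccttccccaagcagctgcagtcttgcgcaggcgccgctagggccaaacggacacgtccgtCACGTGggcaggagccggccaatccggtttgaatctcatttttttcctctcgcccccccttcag
The first base of the word lies 68 bases before the start in Eif3f, 44 in Eif3k, 55 in Eif3m and 96 in Eif4h, and 228 and 64 bases before it in Eif4e, whose window holds it at both places. Mitf itself had a log2 change of -0.68 at 40 µM (standard error 0.18, limma, adjusted p = 0.349). A link between that change and the values of the genes with an E-box was not tested.

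The cap-binding and helicase factors of eIF4F and their cofactors numbered 8 genes, all above background. Eif4h, a small protein that stimulates the helicase eIF4A, was at 14.30 and 14.42 in control, 14.95 and 14.74 at 2.5 µM and 14.73 and 14.62 at 40 µM, above both controls on all 4 treated arrays and with little spread within a dose. Its means were 14.36 ± 0.083 in control, 14.85 ± 0.14 at 2.5 µM and 14.67 ± 0.077 at 40 µM (SD, n = 2). At 2.5 µM it had the smallest unadjusted p of the 44 genes (0.0230), with a log2 change of 0.49 (standard error 0.17, 95% interval from 0.089 to 0.88, limma, adjusted p = 0.483). At 40 µM the change was 0.31 (standard error 0.17, adjusted p = 0.471). Both 40 µM arrays lay below both 2.5 µM arrays, a difference of -0.17 (standard error 0.17). Without both low arrays the log2 change of Eif4h was 0.38 at 2.5 µM and 0.26 at 40 µM. That fit has 1 array at each dose, and its spread comes from the 2 controls.

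Eif4e2, whose product 4EHP binds the cap without recruiting eIF4G and represses its targets, was at 11.76 and 11.60 in control, 12.30 and 12.02 at 2.5 µM and 12.13 and 11.79 at 40 µM. Here too the 4 treated arrays were above the controls, with a log2 change of 0.48 at 2.5 µM (standard error 0.21, limma, adjusted p = 0.523) and 0.28 at 40 µM (standard error 0.21). Eif4e, the cap-binding subunit, was at 11.57 and 11.49 in control, 11.70 and 11.47 at 2.5 µM and 12.36 and 11.12 at 40 µM. The 40 µM arrays lay on opposite sides of the controls, by 0.83 and -0.41, and its mean change of 0.21 was smaller than its standard error of 0.38. Eif4a1, the helicase, was at 15.05 and 14.91 in control, 15.32 and 14.81 at 2.5 µM and 15.57 and 15.19 at 40 µM. Both 40 µM arrays exceeded the controls, with a log2 change of 0.40 (standard error 0.23, limma, adjusted p = 0.504), while at 2.5 µM the arrays enclosed them.

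Eif4g2, a scaffold of the eIF4G family that lacks the eIF4E binding part, was at 16.67 and 16.77 in control, 17.04 and 16.70 at 2.5 µM and 17.09 and 16.50 at 40 µM, again with the 40 µM arrays on either side of the controls. Eif4g3 had a log2 change of -0.28 at 40 µM, nearly all of it on replicate 1 (-0.50, against -0.052 on replicate 2). Eif4b, a further helicase cofactor, had -0.16 with -0.29 on replicate 1 and -0.021 on replicate 2, and Eif4e3, a less studied cap-binding protein, had -0.12. On the low array at 40 µM these last 3 genes were lower and Eif3e, Eif3m and Eif1a were higher.

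The genes whose products hold eIF4E back were, of the 8 sets drawn by complex, the only set with a median below 0 at both doses, -0.39 at 40 µM and -0.31 at 2.5 µM over 3 genes. With 3 genes the median is the value of 1 gene, here Eif4enif1 at 40 µM and Eif4ebp2 at 2.5 µM. Eif4ebp2 lay below background on every array, and Eif4ebp1 was higher at both doses, by 0.37 at 40 µM and 0.16 at 2.5 µM. Eif4enif1 encodes 4E-T, which carries eIF4E into the nucleus and into processing bodies. It was at 12.14 and 12.07 in control, 11.63 and 11.70 at 2.5 µM and 11.69 and 11.75 at 40 µM, and all 4 treated arrays were below both controls. Its means were 12.10 ± 0.048 in control, 11.67 ± 0.054 at 2.5 µM and 11.71 ± 0.043 at 40 µM (SD, n = 2). The difference was thus no larger at the higher dose. Each SD comes from 2 arrays, and the gene was named for its small p, a choice that favours small SDs. The log2 change was -0.44 at 2.5 µM (standard error 0.17, limma, adjusted p = 0.511) and -0.39 at 40 µM (standard error 0.17, adjusted p = 0.424). The difference was nearly as large on the replicate 2 arrays (-0.40 and -0.36) as on the low arrays (-0.48 and -0.42). Its passing without both low arrays, listed above, rests on 1 array at each dose and on the spread of the 2 controls.

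Eif4ebp2, one of the 4E-BP proteins that mTORC1 phosphorylates, was at 9.63 and 9.72 in control, 9.43 and 9.30 at 2.5 µM and 8.999 and 9.46 at 40 µM, below background throughout and below the controls on all 4 treated arrays. The log2 change was -0.44 at 40 µM (standard error 0.23) and -0.31 at 2.5 µM (standard error 0.23). Eif4ebp1, the best known 4E-BP and also a target of the stress factor ATF4, was at 11.69 and 11.73 in control, 12.28 and 11.47 at 2.5 µM and 12.28 and 11.88 at 40 µM. Both 40 µM arrays were above the controls, with a change of 0.37 (standard error 0.29, limma, adjusted p = 0.604), and the 2.5 µM arrays lay on either side of them. Over the 44 genes, the 4 treated arrays were all above both controls for 9 (Eif2d, Eif2b3, Eif2b4, Eif3h, Eif3m, Eif4e2, Eif4h, Eif5a and Eif4a3l1), where 13.0% of all genes were, and all below for 3 (Eif3j2, Eif4ebp2 and Eif4enif1), where 14.8% were. Of the 31 genes above background 6 and 2 did so, with 16.2% and 13.2% over all such genes. Eif3j2 is counted although 2.5 µM replicate 2, at 10.02, was nearly level with control replicate 1, at 10.021.

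**Figure D4:**
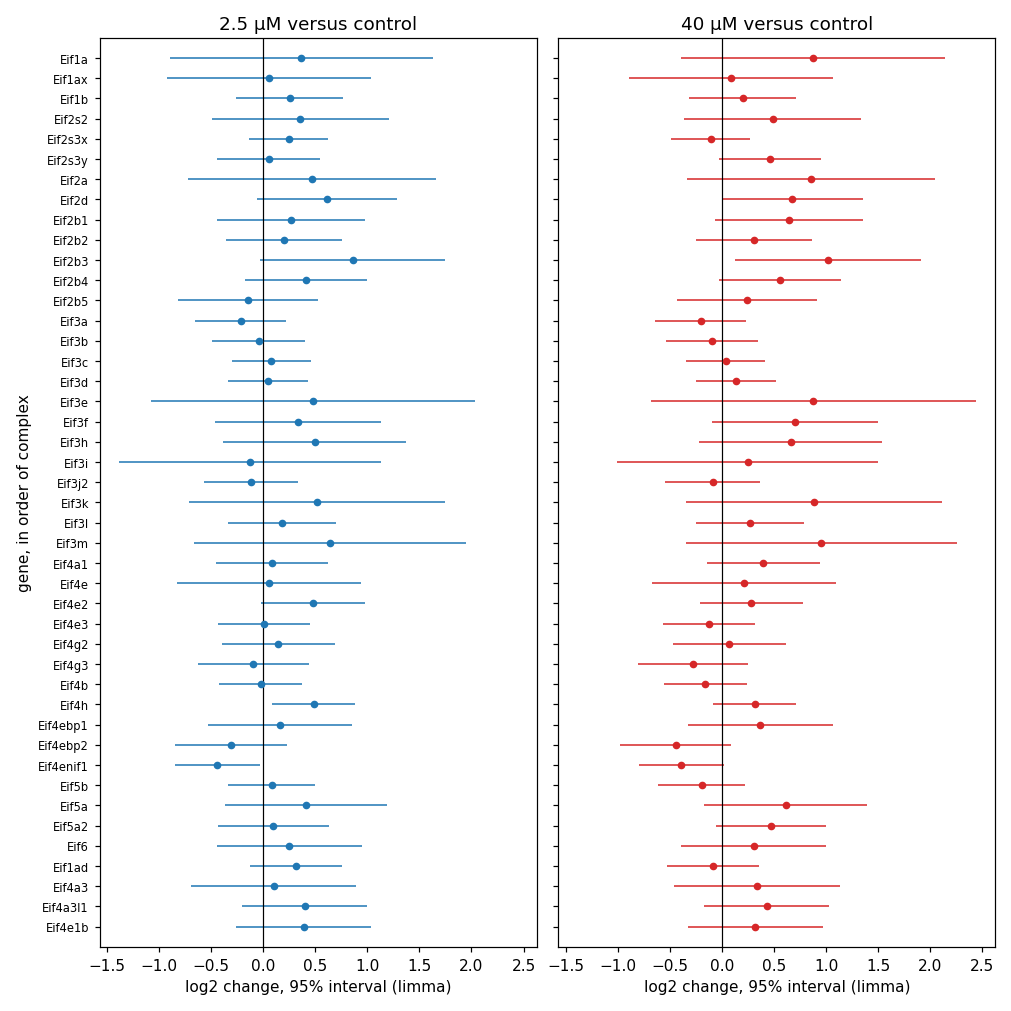
Log2 change against control with its 95% interval (horizontal axis, limma) for the 44 genes in order of complex, at 2.5 µM on the left and at 40 µM on the right. Points are changes and lines their intervals. The intervals of Eif2b3 and Eif2d at 40 µM and of Eif4h and Eif4enif1 at 2.5 µM do not include 0, before any adjustment for the number of genes.

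Of the late factors, eIF5B is the GTPase that joins the large subunit, eIF6 keeps free large subunits apart from small ones, and eIF5A, which carries the modified amino acid hypusine, acts mainly in elongation. Eif5a was at 15.72 and 15.71 in control, 16.35 and 15.91 at 2.5 µM and 16.85 and 15.81 at 40 µM. The controls differed by 0.006, the 4 treated arrays were above them, and the replicate 1 arrays were higher than those of replicate 2 by 0.43 and 1.04. The log2 change at 40 µM was 0.61 (standard error 0.33, limma, adjusted p = 0.474). Eif5b was at 11.46 and 11.39 in control, 11.47 and 11.54 at 2.5 µM and 11.29 and 11.18 at 40 µM. Both 40 µM arrays were below all other arrays, with a change of -0.19 against control (standard error 0.18) and of -0.28 against 2.5 µM (standard error 0.18, adjusted p = 0.868). Eif5a2, a second eIF5A gene with values below background, was at 7.02 and 7.18 in control, 7.09 and 7.31 at 2.5 µM and 7.72 and 7.43 at 40 µM, with a change of 0.47 at 40 µM. Eif6 was at 11.64 and 11.64 on the low arrays and between 10.96 and 11.11 on the other 4.

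The remaining genes carry the prefix without being part of these complexes. Eif1ad, whose human counterpart takes part in the maturation of small ribosomal subunits, was at 10.02 and 10.19 in control, 10.46 and 10.38 at 2.5 µM and 10.01 and 10.03 at 40 µM. Its 2.5 µM arrays were above the other 4, and the difference between 40 µM and 2.5 µM was -0.40 (standard error 0.19, limma, adjusted p = 0.854). Eif4a3, the helicase of the exon junction complex, was at 10.02 and 10.06 in control, 10.46 and 9.82 at 2.5 µM and 10.80 and 9.94 at 40 µM, higher on the low arrays. Eif4a3l1, a related gene, was at 5.62 and 5.49 in control, 5.67 and 6.24 at 2.5 µM and 6.00 and 5.97 at 40 µM, above the controls on all 4 treated arrays but below background, with a change of 0.43 at 40 µM (standard error 0.25). Eif4e1b, an eIF4E gene known from the oocyte, also lay below background on every array, with 0.32 at 40 µM.

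The comparison of 40 µM with 2.5 µM asked whether the higher dose went further. Of the 44 genes 30 were higher at 40 µM, where 49.6% of all genes were, and 14 lower, with a median log2 change of 0.087, and -0.0032 over all genes. None passed (limma, 0.00% of all genes), and none had an unadjusted p under 0.05, which 5.61% of all genes had, 2.34% higher and 3.28% lower. The arrays did not overlap for 3 genes higher at 40 µM (Eif2s3y, Eif3d and Eif5a2), where 12.4% of all genes were, and for 4 lower (Eif2s3x, Eif4h, Eif5b and Eif1ad), where 16.3% were. Above background these were 1 and 4 of 31, with 9.89% and 15.6% over all such genes. For Eif3e, Eif3h, Eif3k and Eif3m the low array at 40 µM was above the low array at 2.5 µM by 0.98, 0.48, 0.54 and 0.62. Without both low arrays 4 of the 44 passed, with Eif4a1 and Eif4ebp1 higher and Eif2s3x and Eif5b lower at 40 µM, where 15.2% of all genes passed, 7.04% higher and 8.16% lower.

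Within each dose, replicate 1 exceeded replicate 2 for 35 of the 44 genes at 2.5 µM, where 49.5% of all genes did, and for 33 at 40 µM, where 48.3% did. Above background it did so for 25 and 23 of 31, with 56.1% and 56.5% over all such genes. The median difference between replicates was 0.27 at 2.5 µM and 0.40 at 40 µM, and over all genes -0.0054 and -0.023. The 63 cytosolic ribosomal protein genes, the products most directly used beside these factors, had median differences from control of 0.54 and 0.77 on the low arrays and of -0.26 and -0.089 on replicate 2 at 2.5 µM and 40 µM. Their part, and that of the low control features, in the values of the initiation factors was not tested.

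Genes around the initiation machinery were counted by lists, to be read against the 48.7% of all genes higher at 40 µM and the 51.2% higher at 2.5 µM. Of the 11 eIF2 kinase and phosphatase genes, 7 were higher and 4 lower at 40 µM, with a median log2 change of 0.29, and at 2.5 µM 5 were higher and 6 lower, with -0.081. The median difference from control on the 40 µM arrays was 0.28 on replicate 1 and 0.079 on replicate 2. The kinases Eif2ak1 (HRI), Eif2ak2 (PKR), Eif2ak3 (PERK) and Eif2ak4 (GCN2), which phosphorylate eIF2 under heme shortage, double-stranded RNA, endoplasmic reticulum stress and amino acid shortage, had changes of -0.061, -0.093, -0.18 and 0.19 at 40 µM, where their standard errors were 0.18, 0.18, 0.20 and 0.18. Ppp1r15a (GADD34), which brings a phosphatase to eIF2, was at 9.13 on 40 µM replicate 1 and between 7.84 and 8.18 on the other arrays. The mRNAs of ATF4 and its targets are at most an indirect read-out of eIF2 phosphorylation, which was not measured. Of 10 of these genes 7 were higher and 3 lower at 40 µM, the median being 0.22, with 0.22 on replicate 1 and 0.033 on replicate 2. At 2.5 µM 6 were higher and 4 lower, with 0.043. Atf4 itself was at 16.65 and 16.56 in control, 16.67 and 16.68 at 2.5 µM and 16.80 and 16.81 at 40 µM, with a change of 0.20 at 40 µM (standard error 0.14). No gene of these lists passed at either dose or between doses (limma).

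Of 12 measured genes of mTORC1 and MNK signalling, 4 were higher and 8 lower at 40 µM, with a median of -0.019, and at 2.5 µM 7 were higher and 5 lower, with 0.11. Rheb, the GTPase that activates mTORC1, was at 11.33 and 11.17 in control, at 13.41 on 40 µM replicate 1 and 11.09 on replicate 2. Mknk2, a kinase of eIF4E, was at 11.08 and 11.05 in control, 11.13 and 10.98 at 2.5 µM and 10.71 and 10.63 at 40 µM, lower on both 40 µM arrays (change -0.39, standard error 0.18, limma, adjusted p = 0.435). Of 12 poly(A) binding and accessory genes 8 were higher and 4 lower at 40 µM, the median being 0.26, with 0.44 on replicate 1 and 0.0021 on replicate 2. At 2.5 µM 10 were higher and 2 lower, with 0.22. Paip1, which helps the poly(A) binding protein join eIF3 and eIF4A, was at 13.80 and 13.74 in control, 13.89 and 13.76 at 2.5 µM and 13.32 and 13.44 at 40 µM, with a change of -0.39 (standard error 0.17, adjusted p = 0.410). Pabpc1, that binding protein, was at 16.27 and 16.22 in control, 17.03 and 16.19 at 2.5 µM and 17.85 and 16.07 at 40 µM, high on the low arrays. Of 10 elongation and termination genes 5 were higher and 5 lower at 40 µM, with a median of 0.024, and 8 higher and 2 lower at 2.5 µM, with 0.075. Eef2k, the kinase that inhibits elongation, was at 11.54 and 12.19 at 40 µM against 12.47 and 12.38 in control (change -0.56, standard error 0.24, adjusted p = 0.419). None of the genes of these 3 lists passed at 40 µM (limma), and 1 of the 12, 12 and 10 measured genes, Paip1, had an unadjusted p under 0.05, which 12.0% of all genes had.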

How the data were processed

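The deposited values are on the log2 scale; per the submitters' processing notes they were made by the authors with RMA in Affymetrix Expression Console and with Transcriptome Analysis Console (versions and genome build not given in the sources used here). Signals of 16 and over occur, above the range of a scanner's log2 intensity, so the scaling of the deposited log2 values is not known in full and differences are given on their scale. Of 28846 features, 6640 controls were set aside. Of the 22206 transcript clusters, 19572 had 1 gene symbol in the platform annotation, 0 several and 2634 none. Where a gene had several clusters (55 genes), that with the highest mean was taken, which left 19505 genes. Groups follow the labels, with 2 arrays each. limma 3.58.1 (R 4.3.3) was fitted to all 6 arrays with a mean-dependent prior, all genes were adjusted together by Benjamini-Hochberg, and the threshold was 0.05. The fit was tested on simulated data. Precision is limited by how few arrays there are. The members and lists were chosen with earlier results of these data known. Every member could be named; values on all arrays were due for the 6 members with the smallest p in each comparison, the member with the highest mean and that with the largest change at 40 µM in each complex, and the 4E-BP genes, and were added for others. The alternatives tried were other scalings, a filter on dim genes, the mean of a gene's clusters, blocks and leaving out arrays. Eif1, Eif2s1, Eif3g, Eif3j1, Eif4a2, Eif4g1 and Eif5 are not analysed here. Related genes (Eif1a and Eif1ax, Eif4a3 and Eif4a3l1, Eif2s3x and Eif2s3y, Eif5a and Eif5a2) could share signal, as probe sequences were not used here. Promoter windows come from RefSeq (GRCm38.p6).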

Additional observations from a re-analysis of the deposited data

How the results depend on the processing

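Counts of initiation factor genes that passed were 0 under every alternative run other than those without 40 µM replicate 2 or without both low arrays. Leaving out 1 array at a time gave 0 to 10 genes at 40 µM against control, the 10 without 40 µM replicate 2, and 0 in the other comparisons. Without both low arrays the counts were 9 at 40 µM against control, 9 at 2.5 µM against control and 4 between doses, with 1 residual degree of freedom in place of 3. The median log2 change ran from -0.0078 to 0.54 at 40 µM, from 0.0026 to 0.33 at 2.5 µM and from -0.20 to 0.29 between doses as single arrays were left out. A block for the array split gave 0.077 at 40 µM and -0.04 at 2.5 µM, and after quantile normalization it was 0.18 and 0.11. Between doses, 1 gene was higher without overlap among genes above background only, and 7 were lower without overlap after quantile normalization, alternatives chosen after seeing the data. The replicate block left the counts at 0 and the medians at 0.31, 0.19 and 0.09. As a check of pairing, the deviations of same-numbered arrays correlated at -0.0045 between control and 2.5 µM, -0.012 between control and 40 µM and 0.39 between the doses. Same-numbered arrays thus deviated together only between the doses, whose replicate 1 arrays are the low arrays, and as the labels name no shared culture or day the numbers were not taken to pair the samples. Of 423 values for single genes, 391 kept direction and side of the threshold, 17 kept direction and passed it, and 15 reversed. All 15 were of genes that had not passed in the main fit. They were counted by direction alone, and Eif4g2 without both low arrays is among them although it passed in that fit. Eif3c reversed to -0.025 without control replicate 1, -0.047 when 40 µM replicate 1 or both low arrays were left out, -0.071 with quantile normalization and -0.059 under the block for the array split. Where 40 µM replicate 1 was left out, alone or with the other low array, Eif1a was at -0.073, Eif2s2 at -0.088, Eif4g2 at -0.23 and Eif4a3 at -0.095, and without 40 µM replicate 2 Eif1a was at 1.82, Eif2s2 at 1.06, Eif3c at 0.12, Eif4g2 at 0.36 and Eif4a3 at 0.77. Under the array split block Eif4g2 was at -0.16 and Eif4a3 at -0.040. The cause was not tested. With 2 arrays a group, and 13 of the 44 means below background, small changes were not detectable at this signal over background.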
